A study of Mus musculus with 6 samples.

Results

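The collagen genes examined here were all protein-coding genes of the mouse annotation (GENCODE M21) that encode a collagen chain, a lysyl oxidase (Lox, Loxl1 to Loxl4) or a lysyl hydroxylase (Plod1 to Plod3), chosen by their symbols. There were 52 such genes among 21836 protein-coding genes, of which 44 encode collagen chains, 5 are lysyl oxidase genes and 3 are lysyl hydroxylase genes. Their RNA was sequenced, after selection of poly(A) RNA and with stranded libraries, from mouse embryonic stem cells (mESCs) that are Dnmt1-/-, Dnmt3a-/- and Dnmt3b-/- (triple knockout, TKO), the genes of the enzymes that maintain and newly place DNA methylation. Both groups were this same TKO line, derived from male J1 mESCs of the 129S4/SvJae strain and grown without feeder cells, so no comparison with methylated cells was made. TKO-serum cells (3 samples) were kept in medium with 15% fetal calf serum (FCS) and the cytokine LIF at 500 U/ml. TKO-2i cells (3 samples) were kept in serum-free N2B27 medium that held 1000 U/ml LIF together with 1 µM PD0325901, which blocks MEK, and 3 µM CHIR99021, which blocks GSK3. The labels number the samples of a group as biological replicates and do not say whether these were separate cultures started on different days, so the p-values measure the spread between these samples. Inhibitors, serum, basal medium and LIF dose all differ between the groups and cannot be told apart.

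Collagens are secreted proteins built from 3 chains that wind into a triple helix. Fibrillar chains form the banded fibres of connective tissue, collagen IV forms the sheet-like network of basement membranes, collagen VI forms beaded filaments, FACIT chains decorate the surface of fibrils, and the multiplexins XV and XVIII are proteoglycans of basement membrane zones. Inside the cell lysyl hydroxylases modify lysines of the chains, and outside it lysyl oxidases convert lysines to the aldehydes that form cross-links. Basement membrane collagens are among the first matrix proteins that the early embryo lays down, and the endoderm that lines the blastocyst cavity is a rich source of them.

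The libraries held 43896549 to 46228700 estimated counts in TKO-2i and 38274042 to 51932739 in TKO-serum. Of the 18177 genes that passed the filter on low counts, 62.5% had an adjusted p-value under 0.05 in edgeR's quasi-likelihood test, with 31.9% higher and 30.6% lower in TKO-2i, so counts of collagen genes are read against these shares. The median log2 fold change of all genes tested was 0.01. Markers of pluripotent cells summed to 5042 to 5561 TPM (a level scaled for transcript length and library size) in TKO-2i and 6157 to 6477 TPM in TKO-serum, and of the 9 listed 5 were lower (Utf1 and Dppa4 at least 2-fold), 2 higher (Nanog and Esrrb) and 2 not called (Pou5f1 and Dppa5a, the pair with the highest TPM). Transcripts of Dnmt1, Dnmt3a and Dnmt3b were counted in every sample, and totals per gene cannot check alleles that may still be transcribed.

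The RefSeq promoter windows (GRCm38.p6, from 250 bases before to 50 bases after a start) of 3 loci on which the results below turn are shown first. The first is the stretch that the windows of the paired genes Col4a1 and Col4a2 share, whose starts point away from each other and overlap by 22 bases (chr8:11312777-11312854, plus strand). The other two are the 250 bases before the upstream start of Col18a1 (chr10:77166531-77166780, minus strand), the chain with the highest level, and before the start of Col5a1 (chr2:27886175-27886424, plus strand), a chain that rose. Capitals mark the letters GGGCGG (the core of the GC box bound by SP1) or CCAAT (the box bound by NF-Y) on either strand, and TATAAA and TGANTCA (AP-1) were also searched for and are not in these stretches.
Col4a1-Col4a2: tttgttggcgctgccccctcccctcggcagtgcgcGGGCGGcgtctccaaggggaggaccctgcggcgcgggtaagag
Col18a1: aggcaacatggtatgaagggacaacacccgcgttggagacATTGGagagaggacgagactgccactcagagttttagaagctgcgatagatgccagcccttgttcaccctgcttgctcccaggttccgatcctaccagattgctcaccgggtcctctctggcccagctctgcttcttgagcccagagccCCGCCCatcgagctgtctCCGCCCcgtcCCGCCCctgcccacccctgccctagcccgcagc
Col5a1: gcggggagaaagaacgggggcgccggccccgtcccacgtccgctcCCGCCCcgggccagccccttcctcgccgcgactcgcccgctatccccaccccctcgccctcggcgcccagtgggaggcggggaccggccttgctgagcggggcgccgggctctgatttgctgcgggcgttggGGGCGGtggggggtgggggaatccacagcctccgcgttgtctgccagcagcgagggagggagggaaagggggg

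Windows were found for 38 of the 52 genes, in 41 entries. GGGCGG was in 25 of the 41 windows (61.0%) and in 35.7% of all 32851 windows of this length, while CCAAT was in 14 (34.1%, 37.4% of all windows) and TGANTCA in 1 (2.44%, 7.81% of all windows), that of Col6a1. TATAAA was in 6 windows (14.6%, 13.6% of all windows). The median GC content of the collagen windows was 60%, and that of all windows was 52.7%. These are matches of letters and show no binding.

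Most collagen chains were lower in TKO-2i than in TKO-serum. Of the 44 chains 34 passed the filter. Of these 25 were called lower, beside 30.6% of all genes tested, and 3 higher (Col5a1, Col13a1 and Col20a1), beside 31.9% of all genes tested. The other 6 were called neither way (Col1a1, Col11a1, Col11a2, Col17a1, Col26a1 and Col27a1). When at least 10 counts were required in every sample, 15 chains were called lower and 3 higher. The other chains called lower had few counts in TKO-2i and passed the first filter only through their counts in TKO-serum. At least 2-fold differences were found for 23 chains that were lower (15.6% of all genes tested) and 1 that was higher, Col20a1 (7.72% of all genes). Among the lower chains 14 were at least 4-fold lower (7.1% of all genes). With at least 10 counts in every sample 13 chains were at least 2-fold lower, beside 1732 of all 15556 genes tested. With limma on log2(TPM + 1) 5 chains were at least 2-fold lower, beside 1171 of all 18177 genes tested. A minimum of 10 counts removes Col4a5, Col6a1, Col6a2, Col6a3, Col6a6, Col8a2, Col9a1, Col12a1, Col14a1 and Col15a1 from the 14. The median log2 fold change of the 34 chains was -1.55. In CPM, every TKO-2i sample lay below every TKO-serum sample in 25 of the 34 chains tested, beside 33.5% of all genes tested. Every TKO-2i sample lay above in 3 chains, beside 34% of all genes tested, and in 6 chains the groups overlapped. These were the same chains as those called lower, higher and neither way, and the calls rest on the same counts. In TPM the groups overlapped for Col6a3, Col7a1 and Col13a1 as well. In bulk RNA, fewer cells that make a chain and less of its RNA per cell cannot be told apart. The plot of fold changes by class shows that the direction was not uniform between classes.

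**Figure D1:**
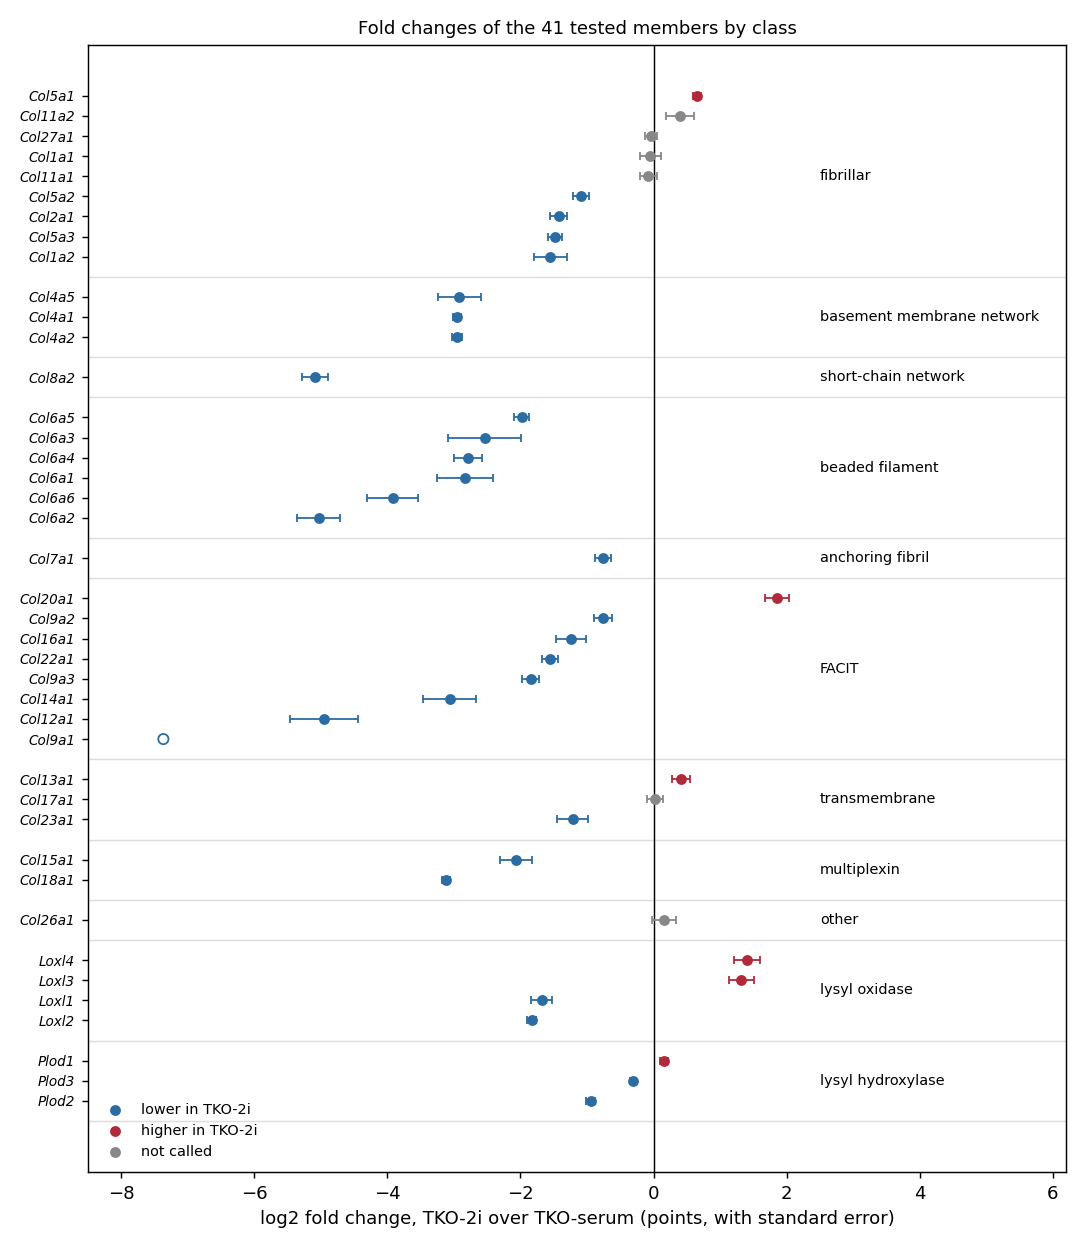
Log2 fold change (TKO-2i over TKO-serum, x axis) of each of the 41 collagen chains and enzymes tested, by class, with the standard error of the edgeR fit as bars and the call by colour. All 6 beaded filament chains and all 3 basement membrane chains tested lie left of 0, the fibrillar chains lie on both sides, and the open circle marks Col9a1, which had 0 counts in TKO-2i so that its fitted fold is no bound.

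The total output of chain RNA was about 5 times lower in TKO-2i, and 1 gene made up most of the difference. The TPM summed over the 44 chains was 47.5, 52.2 and 43.7 in TKO-2i and 238.5, 257.7 and 250 in TKO-serum. The mean was 47.8 ± 4.27 (SD, n = 3) against 248.7 ± 9.63, a 5.21-fold difference. Col18a1 supplied 35.6% ± 2.27 of this sum in TKO-2i and 68.5% ± 0.719 in TKO-serum. Without Col18a1 the sums were 30.8 ± 3.78 and 78.3 ± 1.69 TPM (2.54-fold), and without Col18a1, Col4a1 and Col4a2 they were 27.0 ± 3.29 and 45.9 ± 2.19 TPM (1.70-fold). The share of Col5a1, a fibrillar chain, was 10.3% ± 0.233 in TKO-2i and 1.37% ± 0.0564 in TKO-serum. The order of levels differed accordingly, with Col18a1, Col9a2, Col5a1 and Col4a1 highest in TKO-2i and Col18a1, Col4a1, Col9a2 and Col4a2 highest in TKO-serum. In these orders no gene overlapped the next in TPM, down to Col7a1 after Col4a1 in TKO-2i and Col5a1 after Col4a2 in TKO-serum, whereas Col7a1, Col26a1, Col20a1 and Col13a1 in TKO-2i and Col5a1, Col9a3, Col7a1 and Col5a3 in TKO-serum each overlapped the next gene.

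**Figure D2:**
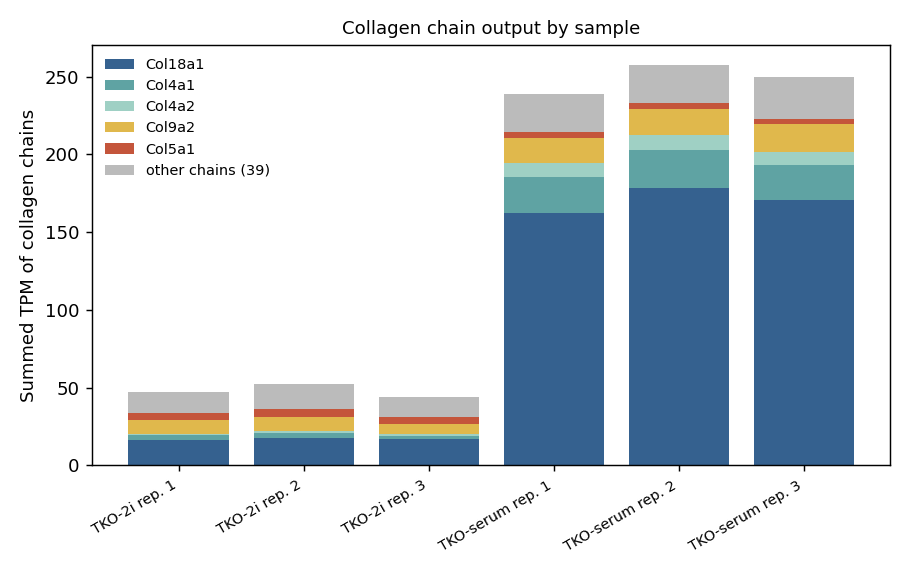
Summed TPM of the 44 collagen chains (y axis, from 0) in each of the 6 samples (x axis), with the 5 chains of the highest level in colour and the other 39 in grey. The 3 TKO-serum samples reach 238.5 to 257.7 TPM and the 3 TKO-2i samples 43.7 to 52.2 TPM, and most of each TKO-serum bar is Col18a1.

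Among the multiplexins both genes fell. Col18a1 encodes the core protein of collagen XVIII, a heparan sulphate proteoglycan whose C-terminal fragment is endostatin (chr10:77052178-77166548, minus strand). It measured 16.6, 17.6 and 16.6 TPM in TKO-2i and 162, 179 and 171 TPM in TKO-serum. The lowest TKO-serum sample was far above the highest TKO-2i sample, and the gene moved from rank 701 among 15085 protein-coding genes tested in TKO-serum to rank 6115 in TKO-2i. In CPM (counts scaled for library size only, the scale of the test) the fall was 8.68-fold (log2 fold change -3.12, SE 0.06, adjusted p = 1.58e-08 by edgeR). Most of the RNA was assigned to Col18a1-202, a transcript of 42 exons that begins near the upstream start printed above, with 14.1 ± 0.783 TPM in TKO-2i and 134.5 ± 4.45 TPM in TKO-serum. Both transcripts that begin near the downstream start, Col18a1-201 and Col18a1-203, had at most 1.24 TPM on average in either group. The RNA of Col18a1 thus came mainly from the window with 3 GGGCGG matches, as far as the assignment of reads to transcripts tells them apart. A short transcript of 5 exons near the 3′ end, Col18a1-205, held 2.55 ± 0.318 and 34.3 ± 4.13 TPM. Col15a1, the other multiplexin, was low throughout, with 8, 10 and 8 counts in TKO-2i and 37, 43 and 35 in TKO-serum (log2 fold change -2.07, SE 0.24, adjusted p = 0.000113).

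The basement membrane chains fell together. Col4a1 and Col4a2 encode the α1 and α2 chains, which assemble as 2 α1 and 1 α2 into the ubiquitous form of collagen IV. Col4a1 measured 2.70, 3.19 and 2.51 TPM in TKO-2i and 23.5, 24.3 and 22.4 TPM in TKO-serum. Its fall in CPM was 7.72-fold (log2 fold change -2.95, SE 0.06, adjusted p = 1.58e-08). Col4a2 measured 1.03, 1.25 and 0.929 TPM in TKO-2i and 9.01, 9.17 and 8.85 TPM in TKO-serum, a 7.75-fold fall in CPM (log2 fold change -2.95, SE 0.07, adjusted p = 2.73e-08). For neither gene did the groups come near each other, and nearly all RNA of both was on coding transcripts. The ratio of Col4a1 to Col4a2 TPM was 2.62, 2.56 and 2.70 in TKO-2i and 2.61, 2.65 and 2.54 in TKO-serum. The mean ratios of 2.63 ± 0.0745 and 2.60 ± 0.0574 differed by less than the spread between samples, while the level of both genes differed.

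The α3 to α6 chains of collagen IV, which form the specialised networks of glomerulus, lung and smooth muscle, were at the lower edge of detection. Col4a5 had 6, 3 and 3 counts in TKO-2i and 30, 33 and 34 in TKO-serum, and fell 7.57-fold in CPM (log2 fold change -2.92, SE 0.32, adjusted p = 7.67e-05). Its neighbour Col4a6, which lies head to head with it with 1308 bases between the genes, had 1 count over the 3 TKO-2i samples and 25 over the TKO-serum samples, a ratio per library size of 23.9 (exact 95% interval 3.91 to 979.6, counting error only). Col4a4 had 3 and 12 counts over the groups and Col4a3 had 0 and 1. Both X-linked chains were thus more abundant in TKO-serum, and Col4a3 was at or under the floor of 3 counts per library in both groups. Col4a4 had a ratio of 3.82 (exact 95% interval 1.03 to 21.1, counting error only). Its groups overlapped, with 1, 2 and 0 counts in TKO-2i and 2, 2 and 8 in TKO-serum, so the ratio rests mostly on TKO-serum replicate 3.

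Markers of other cell types were measured beside these chains, since endoderm is a known source of collagen IV. Of the 12 primitive and visceral endoderm markers listed, 10 were tested and 8 were lower (7 at least 2-fold) and 1 (Hnf4a) higher in TKO-2i, with a median log2 fold change of -2.55 in CPM. Cubn (-6.93, SE 0.14), Dab2 (-4.35, SE 0.11) and Sox7 (-4.05, SE 0.22) fell the most. Sox17 fell less (-0.56, SE 0.15), and Gata4 was not called (-0.17, SE 0.12). In TKO-2i Cubn had 6, 10 and 8 counts, Sox7 had 4, 7 and 6, and Foxa2 had 0, 3 and 3. Cubn, Sox7 and Foxa2 passed the filter only through their counts in TKO-serum, and the median includes them. The summed level of the 12 markers was 7.67 to 9.85 TPM in TKO-2i and 20.9 to 26.5 TPM in TKO-serum, and Ttr was at 0 counts in all TKO-2i samples and at 1, 4 and 1 in TKO-serum. Of 6 parietal endoderm markers 5 were lower (4 at least 2-fold, Pth1r the most at -5.04, SE 0.23) and 1 (Fst) higher, with a median log2 fold change of -1.72 and sums of 6.48 to 7.90 and 12.9 to 14.3 TPM and none at 0 throughout a group. Pth1r had 3, 5 and 7 counts in TKO-2i and 161, 190 and 174 in TKO-serum. Of 10 fibroblast and feeder cell markers 4 were tested, with 1 higher and 2 lower, and sums of 5.55 to 6.0 and 8.70 to 9.24 TPM. Acta2 fell from 159, 188 and 163 counts in TKO-serum to 0, 1 and 0 in TKO-2i (log2 fold change -8.49, SE 0.37). Thy1 fell less (-0.42, SE 0.09), and Pdgfrb rose (1.62, SE 0.14). Twist2 was at 0 counts in TKO-2i and at 1, 0 and 3 in TKO-serum, and 3 of the 10 (Dcn, Lum and Postn) are also among the matrix partners below. Mesoderm and primitive streak markers went the other way in sum, with 18.3 to 23.5 TPM in TKO-2i and 4.73 to 5.38 in TKO-serum (2 higher and 2 lower of 6 tested). Most of the TKO-2i sum was T, which rose from 0.271 to 11.8 TPM, and Eomes, which rose from 0.928 to 5.86 TPM. Hand1 (-2.11, SE 0.21) and Tbx6 (-0.76, SE 0.24) fell. The study lists Eomes as a stem cell maintenance gene whose upregulation goes with 2i adaptation. Of 3 endothelial markers 2 were lower and 1 higher, with sums of 56.8 to 67.8 and 33.6 to 34.9 TPM. Most of these sums was Pecam1, which rose from 27.3 to 60.6 TPM, while Cdh5 (-4.81, SE 0.50) and Tek (-1.89, SE 0.09) fell. Cdh5 had 1, 3 and 0 counts in TKO-2i and 40, 54 and 34 in TKO-serum. The part of such cells in the collagen results was not tested.

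All 6 chains of collagen VI were called lower in TKO-2i, at low levels. Col6a1, Col6a2, Col6a3 and Col6a6 passed the filter only through their counts in TKO-serum. With at least 10 counts required in every sample, 2 chains of this class were called lower. Col6a1 and Col6a2 encode the α1 and α2 chains that every collagen VI molecule contains, and the third chain comes from Col6a3 or from Col6a4, Col6a5 or Col6a6. Col6a2 had 1, 2 and 2 counts in TKO-2i and 59, 63 and 60 in TKO-serum. Its neighbour Col6a1 had 5, 6 and 1 counts in TKO-2i and 21, 43 and 29 in TKO-serum. Both obligate chains were thus nearly absent from the TKO-2i libraries, with log2 fold changes of -5.03 (SE 0.32) for Col6a2 and -2.84 (SE 0.42) for Col6a1. Col6a3 had 5, 5 and 0 counts against 16, 28 and 19 (log2 fold change -2.54, SE 0.55, adjusted p = 0.00362), but on the TPM scale it was 0.0362 ± 0.0506 and 0.0554 ± 0.0112 and was not called (adjusted p = 0.647 and 0.453 with limma, and 0.668 with counts from length-scaled TPM). Of the 3 genes that lie in tandem on chromosome 9, Col6a4 had 15, 28 and 22 counts in TKO-2i and 124, 177 and 172 in TKO-serum. Col6a6 had 2, 2 and 1 against 29, 29 and 26 counts. Col6a5 was at 0.454 ± 0.137 and 1.54 ± 0.235 TPM, of which 22.8% and 28.7% lay on coding transcripts. The tandem genes fell with log2 fold changes of -2.79 (Col6a4), -1.98 (Col6a5) and -3.92 (Col6a6), with no overlap between groups in any of them. None of the 6 had a mean above 1.54 TPM in either group, so this class contributed little to the summed output.

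Col8a2 fell from a low level to near the limit of detection. It encodes a short chain that forms the hexagonal lattice under the corneal endothelium and is also made by blood vessels. It had 4, 5 and 4 counts in TKO-2i and 137, 190 and 150 in TKO-serum, or 0.0288 ± 0.00685 and 1.08 ± 0.0879 TPM. The fall in CPM was 34.1-fold (log2 fold change -5.09, SE 0.19, adjusted p = 2.02e-07). Its partner Col8a1 had 2 and 12 counts over the groups, and Col10a1, the chain of hypertrophic cartilage, had 0 and 5. Neither passed the filter. Col7a1, which forms the anchoring fibrils of skin, measured 1.14, 2.45 and 1.71 TPM in TKO-2i and 2.21, 2.89 and 3.01 TPM in TKO-serum. The ranges overlapped in TPM and not in CPM, where the log2 fold change was -0.76 (SE 0.12, adjusted p = 0.000551), the call was lost with limma on TPM (adjusted p = 0.0732 and 0.0791) and with counts from length-scaled TPM (adjusted p = 0.0523), and 21.1% and 27.8% of its TPM lay on coding transcripts.

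The fibrillar chains divided. Of 9 tested, 4 were lower, 1 was higher and 4 were not called, and the median log2 fold change of the 9 was -0.08. Col2a1, the chain of cartilage fibrils, measured 0.620, 0.612 and 0.904 TPM in TKO-2i and 1.94, 2.07 and 2.25 TPM in TKO-serum, with no overlap. It fell 2.69-fold in CPM (log2 fold change -1.43, SE 0.13, adjusted p = 2.27e-05). Its RNA was also assigned differently between its long coding transcripts. Col2a1-202 (53 exons) was listed at 0 TPM in all TKO-2i samples and averaged 0.846 ± 0.106 TPM in TKO-serum, while Col2a1-201 (54 exons) was at 0.635 ± 0.0426 and 1.10 ± 0.272 TPM. Such a division of shared reads at low counts is an estimate and was not tested. Col1a2, the α2 chain of collagen I, fell as well (0.370 ± 0.115 and 1.07 ± 0.0992 CPM, log2 fold change -1.55, SE 0.25), and this on chromosome 6, where genes tested had a median log2 fold change of 0.41, a shift whose part in these values was not tested. Its partner Col1a1, on chromosome 11 (median 0.26), had 3.47 ± 0.533 and 3.59 ± 0.511 CPM and was not called (adjusted p = 0.805).

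Collagen V, which sets the diameter of collagen I fibrils, showed opposite directions in its chains. Col5a1 measured 4.78, 5.43 and 4.59 TPM in TKO-2i and 3.36, 3.61 and 3.27 TPM in TKO-serum. Every TKO-2i sample was above every TKO-serum sample, and the rise in CPM was 1.57-fold (log2 fold change 0.65, SE 0.06, adjusted p = 1.6e-05). Col5a2 fell from 4.94 ± 0.467 CPM in TKO-serum to 2.32 ± 0.191 in TKO-2i (log2 fold change -1.09, SE 0.12, adjusted p = 7.03e-05). Col5a3 measured 0.692, 0.963 and 0.595 TPM in TKO-2i and 2.23, 2.31 and 2.20 TPM in TKO-serum, and fell 2.80-fold in CPM (log2 fold change -1.48, SE 0.11). The ratio of Col5a1 to Col5a2 TPM was 7.82, 11.4 and 12.5 in TKO-2i and 4.02, 3.58 and 2.36 in TKO-serum, so that the chain that makes up most of the collagen V heterotrimer outweighed its partner about 10.6 ± 2.45 times in TKO-2i and 3.32 ± 0.859 times in TKO-serum. On coding transcripts alone the ratios were 11.4, 11.4 and 12.5 in TKO-2i and 4.02, 3.58 and 3.14 in TKO-serum. Their means were 11.8 ± 0.659 and 3.58 ± 0.437. Col11a1, Col11a2 and Col27a1 were not called. Col27a1 measured 0.912, 1.18 and 0.962 TPM in TKO-2i and 1.13, 1.01 and 1.27 TPM in TKO-serum, and its groups overlapped. Col11a2 had a log2 fold change of 0.40 (SE 0.22, adjusted p = 0.14) and was called higher when coding transcripts alone were counted. Col3a1 and Col24a1 did not pass the filter, at up to 5 and up to 4 counts in a sample.

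**Figure D3:**
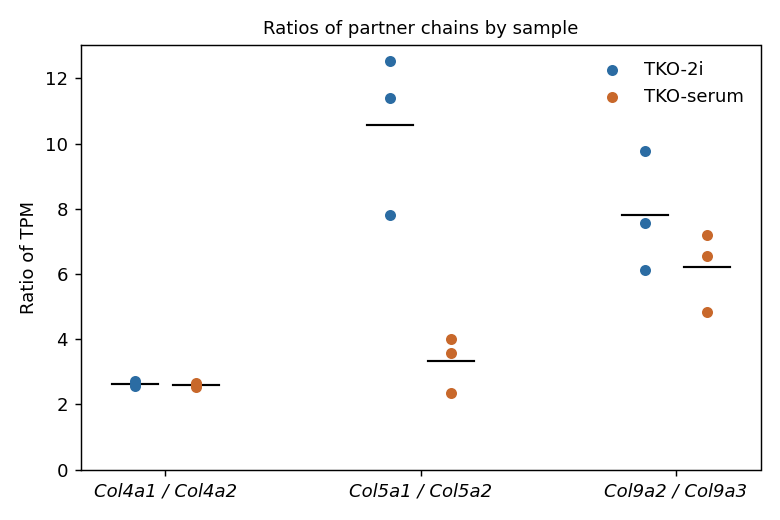
Ratio of the TPM of 2 chains that assemble together (y axis, from 0) in each sample, for Col4a1 to Col4a2, Col5a1 to Col5a2 and Col9a2 to Col9a3, with a bar at the mean of each group. The Col4a1 to Col4a2 ratios of the groups coincide near 2.6, the Col5a1 to Col5a2 ratios do not overlap, and the Col9a2 to Col9a3 ratios, here over all transcripts, overlap.

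Of the 8 FACIT chains tested 7 fell and Col20a1 rose. Col9a1, Col12a1 and Col14a1 passed the filter only through their counts in TKO-serum. With at least 10 counts required in every sample, 4 FACIT chains were called lower. Collagen IX carries a chain each from Col9a1, Col9a2 and Col9a3 and coats collagen II fibrils in cartilage. Col9a2 was the most abundant FACIT chain, with 8.74, 8.89 and 6.41 TPM in TKO-2i and 16.0, 17.1 and 17.9 TPM in TKO-serum. It fell by 0.76 on the log2 scale in CPM (SE 0.13, adjusted p = 0.00113). Col9a3 measured 1.43, 0.911 and 0.849 TPM in TKO-2i and 3.30, 2.37 and 2.73 TPM in TKO-serum (log2 fold change -1.85, SE 0.12). Col9a1 had 0 counts in every TKO-2i sample and 15, 24 and 24 in TKO-serum, which is at least 6.63-fold lower when 3 counts per library are taken as the floor. The 3 chains of collagen IX thus fell in common, from very different levels, and the ratio of Col9a2 to Col9a3 TPM was 7.81 ± 1.83 in TKO-2i and 6.21 ± 1.22 in TKO-serum with overlapping samples. On coding transcripts alone the ratios were 53.9, 13.4 and 13.3 in TKO-2i and 5.72, 5.96 and 4.99 in TKO-serum, so that the groups did not overlap and TKO-2i replicate 1 stood far above the other samples. Of the Col9a3 TPM, 33.8% in TKO-2i and 76.6% in TKO-serum lay on coding transcripts.

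The remaining FACIT chains were low. Col12a1, found on fibrils under tension, had 1, 1 and 0 counts in TKO-2i and 17, 32 and 28 in TKO-serum, a ratio of 36.7 (exact 95% interval 9.83 to 309, counting error only), and its call was lost with limma on log2(TPM + 1) (adjusted p = 0.0713). Col14a1, a related chain, had 2, 3 and 6 counts against 28, 47 and 25 (log2 fold change -3.06, SE 0.40). Col22a1, a chain of tissue junctions, measured 0.665, 0.512 and 0.577 TPM in TKO-2i and 1.61, 1.22 and 2.15 TPM in TKO-serum (log2 fold change -1.56, SE 0.12). The groups were separate for each of these, as they were for Col16a1 (log2 fold change -1.24, SE 0.23). Col20a1 had 3.54 ± 0.499 CPM in TKO-2i and 0.967 ± 0.202 in TKO-serum, a 3.62-fold rise (log2 fold change 1.86, SE 0.18, adjusted p = 3.87e-05). It lies 364345 bases from Col9a3 on the same strand of chromosome 2, which moved in the opposite direction.

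The 3 transmembrane collagens tested, which are cell surface proteins, went different ways. Col13a1 was called higher at 2.74 ± 0.283 against 2.06 ± 0.187 CPM (log2 fold change 0.41, SE 0.13, adjusted p = 0.0263), and the call was lost in 9 alternatives, including DESeq2 (adjusted p = 0.0932) and with TKO-2i replicate 1, TKO-serum replicate 1 or TKO-serum replicate 2 left out (adjusted p = 0.0949, 0.0897 and 0.0711). Col17a1, the hemidesmosome collagen of epithelia, had 2.55 ± 0.0167 and 2.5 ± 0.22 CPM and was not called (adjusted p = 0.879). Col23a1 fell (0.311 ± 0.0529 and 0.729 ± 0.0534 CPM, log2 fold change -1.22, SE 0.23). Col25a1 had 3 to 5 counts in a TKO-2i sample and 6 to 10 in a TKO-serum sample and was not tested. Col26a1 measured 1.93, 1.71 and 0.918 TPM in TKO-2i and 1.66, 1.29 and 1.54 TPM in TKO-serum, and its groups overlapped. Col28a1 had 2 and 20 counts over the groups, a ratio of 9.54 (exact 95% interval 2.32 to 84.2, counting error only), and Col19a1 had 1 and 5.

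**Figure D4:**
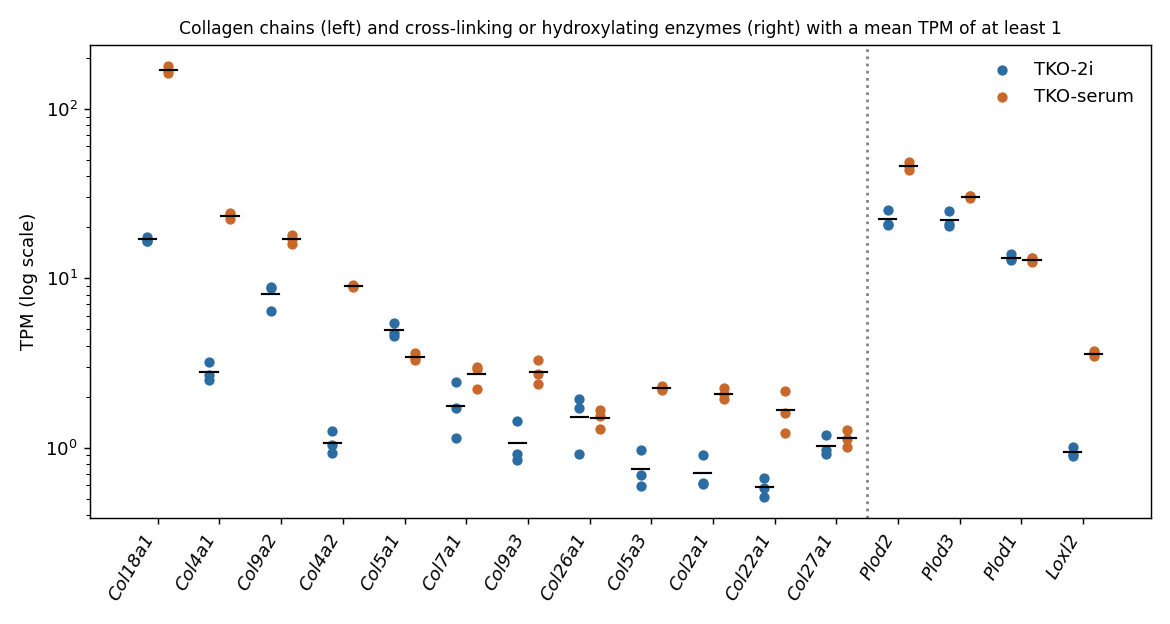
TPM (log axis) of the 12 collagen chains and 4 enzymes with a mean of at least 1 TPM over all samples, with a point for each of the 3 samples of a group and a bar at the group mean. Col18a1, Col4a1 and Col4a2 are far apart between groups, Col5a1 is higher in TKO-2i, and Col26a1, Col27a1 and Plod1 lie at like levels.

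The cross-linking enzymes split by gene. Loxl2, the lysyl oxidase-like enzyme that acts on collagen IV, measured 0.912, 1.01 and 0.888 TPM in TKO-2i and 3.45, 3.71 and 3.62 TPM in TKO-serum. It fell 3.56-fold in CPM (log2 fold change -1.83, SE 0.07, adjusted p = 2.38e-07). Loxl1, best known from elastic fibres, fell as well (0.829 ± 0.0565 and 2.68 ± 0.312 CPM, log2 fold change -1.68, SE 0.15). In contrast, Loxl4 rose from 0.734 ± 0.153 to 1.92 ± 0.266 CPM (log2 fold change 1.4, SE 0.20, adjusted p = 0.00034) and Loxl3 from 0.582 ± 0.0528 to 1.45 ± 0.213 CPM (log2 fold change 1.32, SE 0.19, adjusted p = 0.000366). Loxl3 lies on chromosome 6, where the median was 0.41, and its call was lost on the TPM scale (adjusted p = 0.0587 and 0.0603 with limma). Lox itself had 1 count over the TKO-2i samples and 22 over the TKO-serum samples, a ratio of 21 (exact 95% interval 3.39 to 867, counting error only). The 2 enzymes that fell and the 2 that rose did not overlap between groups in CPM. In TPM the groups overlapped for Loxl3 (0.552, 0.567 and 0.401 in TKO-2i, 0.457, 0.190 and 0.155 in TKO-serum).

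The lysyl hydroxylases were the most abundant of the enzymes and differed least. Plod2, whose product hydroxylates lysines in the telopeptides of fibrillar collagens, measured 20.7, 25.2 and 20.9 TPM in TKO-2i and 43.3, 48.3 and 46.2 TPM in TKO-serum. Its fall in CPM was 1.92-fold (log2 fold change -0.94, SE 0.07, adjusted p = 5.07e-06). Plod3, which also transfers glucose to galactosylated hydroxylysine, measured 20.9, 24.9 and 20.2 TPM in TKO-2i and 30.6, 29.6 and 30.5 TPM in TKO-serum (log2 fold change -0.31, SE 0.05, adjusted p = 0.000424). Both fell without overlap between groups. Plod1, which acts on lysines of the helix, measured 12.9, 13.8 and 12.9 TPM in TKO-2i and 12.4, 13.2 and 13.1 TPM in TKO-serum, and the groups overlapped in TPM. In CPM it was called slightly higher (log2 fold change 0.15, SE 0.06, adjusted p = 0.0468), and 14 alternatives did not call it, with adjusted p-values up to 0.735.

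Genes that act on collagen before and after secretion were taken from a list of 65 symbols, of which 54 were tested. Among them 15 were higher (31.9%) and 26 lower (30.6%) in TKO-2i and 13 were not called, and 2 were at least 2-fold higher (7.72%) and 17 at least 2-fold lower (15.6%), the percentages being the shares of all genes tested. Their median log2 fold change was -0.34, beside -1.55 for the chains (those near 0 in TKO-2i included) and 0.01 for all genes. The difference between these medians was not tested. P4hb, the shared subunit of prolyl 4-hydroxylase, rose from 331 ± 15 to 424 ± 17 TPM (log2 fold change in CPM 0.46, on chromosome 11 with its median of 0.26), and Ppib, the cyclophilin that helps proline isomerise, rose from 244 ± 2.88 to 305 ± 3.65 TPM (0.41). Within the same step P3h2, the prolyl 3-hydroxylase known for its action on collagen IV, fell (log2 fold change -3.62, SE 0.31, adjusted p = 1.67e-05). P4ha3 fell as well (-2.14, SE 0.32). P3h2 had 6, 4 and 4 counts in TKO-2i and 38, 79 and 70 in TKO-serum. P4ha3 had 4, 4 and 3 counts in TKO-2i and 16, 20 and 16 in TKO-serum. Both genes passed the filter only through their counts in TKO-serum. Of the 10 genes of this step 4 rose and 5 fell. Colgalt1, which adds galactose to hydroxylysine, rose (0.52, SE 0.05).

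For folding and export, 2 of 10 genes rose, 3 fell and 5 were not called. Fkbp10, a chaperone of procollagen, fell from 11.1 ± 0.317 to 1.55 ± 0.278 TPM (log2 fold change in CPM -2.85, SE 0.07, adjusted p = 3.73e-08), and Creb3l1, a transcription factor that drives secretory cargo genes, fell from 11.2 ± 0.532 to 1.97 ± 0.178 TPM (-2.37, SE 0.09). The COPII coat genes Sec23a and Sec24d, which serve export from the endoplasmic reticulum, had smaller differences (0.18, SE 0.05, and -0.75, SE 0.05). Serpinh1, the collagen chaperone HSP47, was not called (log2 fold change -0.06, SE 0.08, adjusted p = 0.532), a value outside the naming rule given because the gene serves collagen in particular. Of the 7 genes tested for propeptide cleavage 2 rose and 4 fell. Pcolce, an enhancer of C-propeptide cleavage, rose (0.76, SE 0.08), as did Pcolce2 (0.43, SE 0.05), while the proteinases Bmp1 (-1.51, SE 0.12) and Adamts3 (-2.15, SE 0.35) fell. Adamts3 was low, with 12, 8 and 4 counts in TKO-2i and 26, 41 and 46 in TKO-serum.

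Of 9 genes tested for breakdown and its inhibition 2 rose and 4 fell. Timp1, an inhibitor of matrix metalloproteinases, rose from 39.6 ± 1.05 to 91.8 ± 2.15 TPM (log2 fold change in CPM 1.31, SE 0.07, adjusted p = 1.32e-06), while Mmp2, a gelatinase that also cuts collagen IV, fell (-2.66, SE 0.12) and so did the inhibitor Timp3 (-2.67, SE 0.12). Mmp14, a membrane-bound collagenase, fell less (-0.49, SE 0.06). Among 8 receptors tested, 2 rose and 4 fell. Ddr1, a receptor tyrosine kinase for collagens, fell from 21.4 ± 0.775 to 6.33 ± 0.290 TPM (-1.53, SE 0.08), Itga1, the α chain of a collagen IV-binding integrin, fell (-2.73, SE 0.23), and Mrc2, an endocytic receptor for collagen, fell (-2.72, SE 0.16). Itga1 was low, at 0.0568 ± 0.0302 TPM in TKO-2i and 0.331 ± 0.0267 TPM in TKO-serum. Itgb1, the β chain shared by collagen-binding integrins, fell by a smaller amount (-0.31, SE 0.06).

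Of 9 matrix partners tested 2 rose and 6 fell, and partners of the basement membrane went both ways. Fn1 (fibronectin) rose from 160 ± 10.8 to 235 ± 44 TPM (log2 fold change in CPM 0.65, SE 0.06). Nid2, a linker of laminin to collagen IV, fell from 139 ± 7.77 to 106 ± 6.92 TPM (-0.28, SE 0.04, adjusted p = 0.000683). Its paralogue Nid1 rose (1.14, SE 0.07, adjusted p = 2.41e-06) and Hspg2, the basement membrane proteoglycan perlecan, fell (-1.55, SE 0.08), both named after their values were seen. Pxdn, the peroxidase that forms sulphilimine cross-links in collagen IV, fell (-2.77, SE 0.10, adjusted p = 1.4e-07), and Bgn, a small proteoglycan that binds collagen, fell (-4.14, SE 0.43). Bgn was low, with 1, 2 and 3 counts in TKO-2i and 38, 52 and 27 in TKO-serum.

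**Figure D5:**
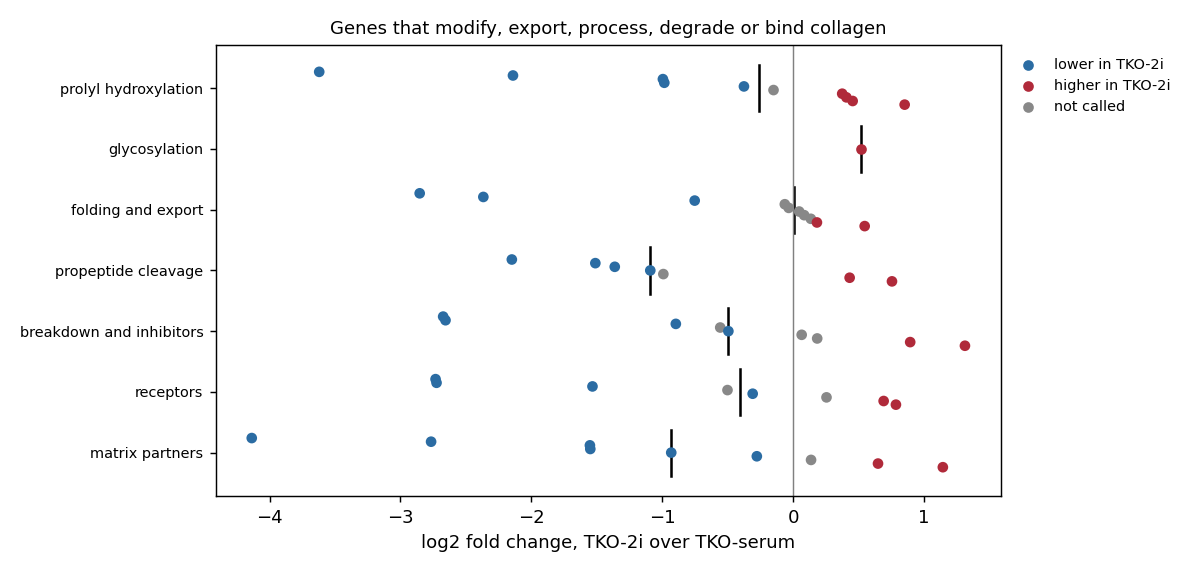
Log2 fold change (TKO-2i over TKO-serum, x axis) of the 54 tested genes that act on collagen, by step (y axis), with a point for each gene coloured by its call and a black bar at the median of each step. The medians run from -1.09 for propeptide cleavage to 0.52 for glycosylation, which has 1 gene tested.

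Genes that lie within 1 Mb of each other formed 11 neighbouring pairs. In 5 of these both genes were called lower, namely Col4a1 with Col4a2, Col6a2 with Col6a1, Col6a1 with Col18a1, Col6a6 with Col6a5 and Col6a5 with Col6a4. This count stands beside 25 of 34 chains tested that were called lower, and a link to position was not tested. Col6a1 and Col6a5 are each in more than 1 of these pairs. Col6a1, Col6a2 and Col6a6 passed the filter only through their counts in TKO-serum. In 1 pair, Col9a3 with Col20a1, the genes moved in opposite directions, and in the other 5 at least 1 gene was not tested or not called. The distance between the genes of a pair ran from an overlap of 22 bases (Col4a1 and Col4a2) to 364345 bases.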

How the data were processed

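RNA-seq values of 3 TKO-2i and 3 TKO-serum samples were analysed, grouped by the culture condition and replicate number in the labels. The authors deposited, for each transcript, an estimated count, a TPM value and an effective length. The columns are those of the quantifier salmon, whose use and version are not given in the sources used here, and the study's methods describe Tophat, RPKM and DEseq on mm10. Estimated counts deposited by the authors are not normalized, and reads shared between transcripts are divided, so that shares of overlapping or short transcripts are estimates. TPM values were scaled by the authors for effective length, with the same total in each library.

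Transcripts were matched by name to GENCODE M21, an annotation of GRCm38 (mm10), which found 136100 of 136288. At most 0.0643% of a library's counts were unmatched and left out. Estimated counts were summed over 53390 genes, and rounded. In edgeR 4.0.16 (R 4.3.3) low genes were removed by filterByExpr, library sizes were scaled by TMM, and TKO-2i was compared with TKO-serum by glmQLFit and glmQLFTest with Benjamini-Hochberg adjustment over the 18177 genes tested. A gene was called at an adjusted p under 0.05. SE is the absolute log2 fold change divided by the square root of F. A count of 3 equals 0.0564 to 0.0778 CPM, depending on the library. Intervals and floors cover counting error only. With 3 against 3 samples an exact permutation test cannot go below p = 0.1, and none was run. Sums and ratios of TPM were given with no test. Python 3.11.15, numpy 2.4.6 and pandas 2.3.3 were used.

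The genes and all lists were chosen with earlier results of these data known. Values per sample are given for collagen genes with a mean TPM of at least 1, or called with an absolute log2 fold change of at least 2, and for the rest group values, ranges or counts. Pathway genes are named, per step, from at most the 2 with the highest mean TPM and the 2 with the largest absolute log2 fold change among those called, unless stated. Alternatives were DESeq2 1.42.0, its size factors in edgeR, no filter, a minimum of 10 counts in each sample, limma 3.58.1 with pseudocounts of 1 and 0.1 on log2 TPM, length-scaled TPM turned into counts, protein-coding genes or transcripts only, the replicate number as a block, and each sample left out in turn. Promoter windows were taken from RefSeq. Protein sequences were not used here.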

Additional observations from a re-analysis of the deposited data

How the results depend on the processing

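Of the 41 collagen genes tested, 29 had the direction and call of the report in every alternative that tested them, Col18a1, Col4a1, Col4a2, Col8a2, Col5a1 and Col20a1 among them. The 25 chains called lower were 15 with at least 10 counts in every sample, a filter that removes genes near 0 in TKO-2i, and between 22 and 27 in the other fits. Under that filter the short-chain, beaded filament and FACIT classes had 0, 2 and 4 chains called lower, the chains at least 2-fold lower were 13, and all genes at least 2-fold lower were 1732 instead of 2839. Among members with a mean TPM of at least 1, 9 chains were called lower and 1 higher. With limma on log2(TPM + 1), whose pseudocount shrinks the folds of low genes, 5 chains were at least 2-fold lower and 0 at least 2-fold higher, 575 genes were at least 2-fold higher and 1171 lower, and 1 enzyme was called higher, 0 of them at least 2-fold. With limma on log2(TPM + 0.1), 1 enzyme was called higher, at least 2-fold. Col13a1 was the chain behind the transmembrane count, which was 0 instead of 1 with DESeq2, no filter, length-scaled TPM, both limma fits and coding transcripts only, and 0 to 1 with a sample left out. On coding transcripts only, 2 fibrillar chains were called higher. Without Col18a1 the log2 ratio of summed chain TPM was -1.34 instead of -2.38. Without Col13a1 the transmembrane log2 ratio was -0.18 instead of 0.08. Changes of sign were confined, among the single genes in all alternatives run, to the 6 chains not called. Col1a1 was 0.16 with length-scaled TPM, 0.0333 and 0.0593 with limma (pseudocounts 1 and 0.1) and -0.191 to 0.0496 with a sample left out. Col11a2 was -0.11 with length-scaled TPM and -0.0435 and -0.0944 with limma. Col17a1 was -0.0191 with at least 10 counts, -0.0029 with protein-coding genes, -0.0426 with coding transcripts and -0.0394 to 0.0733 with a sample left out. Col26a1 was -0.0075 and -0.0336 with limma and -0.0512 to 0.27 with a sample left out. Col11a1 ranged over -0.203 to 0.0252 and Col27a1 over -0.0908 to 0.00897 with a sample left out. Samples with the same replicate number did not all deviate together (r = 0.22, 0.30 and 0.0026 for numbers 1, 2 and 3), so the numbers were not taken to pair them, and the replicate block gave 25 chains lower and 3 higher, with 6095 genes lower and 6444 higher overall. The 11 genes not tested had too few counts to pass the filter, and the cause of the other changes was not tested.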
